A study of Mus musculus with 2 samples.

Results

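The axon guidance ligands and receptors were taken as every gene whose symbol marks it as a semaphorin, plexin, slit, robo, Unc5, EphA, EphB, ephrin-A or ephrin-B, together with Ntn1, Ntn4, Dcc, Neo1, Nrp1 and Nrp2, with the Slitrk genes left out. The rule found 73 of the 32285 genes in the tables. Of these, 68 are guidance genes proper, and 5 match by symbol only: Unc50, Unc5cl and the transcripts Plxna4os1, Plxna4os2 and Plxna4os3, which are named for lying opposite Plxna4. The 68 comprise 20 semaphorins, 9 plexins, 2 neuropilins, 9 EphA and 5 EphB receptors, 5 ephrin-A and 3 ephrin-B ligands, 2 netrins, 6 netrin receptors, 3 slits and 4 robos. A single member, Plxna4os3, had no molecule in any kept cell.

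Guidance cues steer growing axons and migrating cells. Semaphorins signal through plexins, and the secreted class 3 semaphorins mostly do so with neuropilins as binding partners. Ephrins are bound to the membrane of one cell and are read by Eph receptors on its neighbour, with signals passing both ways. Netrins attract through Dcc and Neo1 and repel through the Unc5 receptors, and slits repel through the robo receptors. The same systems shape blood vessels, where Robo4, Unc5b, Plxnd1, Nrp1 and Ephb4 are known endothelial receptors, and oligodendrocyte precursors, which read semaphorins and netrins as they migrate.

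The cells came from whole brain of mice at postnatal day 10, of a strain given as C57BL/J, as 2 droplet libraries of 1 group with no treatment and no control. The series names 6 mice and ties none of them to a library, so the kind of replicate is unknown. The p-values measure only the spread of classes between these libraries, beyond a difference common to all classes. This spread may be technical. Each value is a number of unique molecular identifiers (UMIs), the tags that count captured RNA molecules. Libraries 1 and 2 held 12978 and 19508 barcodes with 51452085 and 45532691 UMIs. After filtering, 11992 and 14067 cells remained, of which 10388 and 8404 fell into clusters that carried the markers of a cell class. The unnamed 5663 cells of library 2 had a median of 1045 UMIs, against 3539 for the 1604 of library 1. Levels below are in CPM, the UMIs of a gene scaled to the same total of UMIs in every summed class, given for library 1 and then library 2.

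The comparison was across cell classes, since the labels name no other contrast. The 14 classes with at least 30 cells in each library held 10310 and 8078 cells, and most were uneven: microglia-like cells numbered 91 and 1762, pericyte-like cells 440 and 56, and differentiating oligodendrocyte-like cells 437 and 41. In every class the markers of its own list were detected, with none at 0 except 1 and 4 of 10 oligodendrocyte markers in differentiating oligodendrocyte-like cells and 1 of 9 excitatory neuron markers in excitatory neuron-like cells of library 2. The excitatory neuron-like cells also held 8550 and 8523 CPM of the 11 neuroblast markers, against 916 and 1014 CPM of their own list, so the markers of both lists were present in them. Interneuron-like cells held 2204 and 34997 CPM of the interneuron markers, with Npy the highest of the list in both. Markers of red blood cells stood at up to 6288 CPM in the classes of library 2, in ependymal-like cells, and their part in the results was not tested. The libraries shared 90 cell barcodes, and the calls without them are given at the end. The members were left out of the genes used for clustering, so no member helped to draw a class.

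Of the 73 members, 60 passed the filter on low counts and were tested among 11371 genes. The 13 that did not pass were Efna4, Epha1, Epha6, Epha8, Epha10, Robo3, Sema3b, Sema3e, Sema3f, Slit3, Unc5cl, Plxna4os2 and Plxna4os3. Among them Sema3e, a class 3 semaphorin read by Plxnd1, stood at 9.60 and 21.9 CPM in ependymal-like cells and at 3.84 CPM or less in each of the other 13 classes and both libraries. Efna4, an ephrin-A ligand, had 495 UMIs over the 14 classes and stayed at or under 19.9 CPM in every class.

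Of the 57 guidance genes with at least 100 UMIs over the 14 classes, 39 were highest in the same class in both libraries, and 36 had their highest class above the next class without overlap of the libraries. The highest level lay in excitatory neuron-like cells for 14 genes, in interneuron-like and differentiating oligodendrocyte-like cells for 6 each, and in Cajal-Retzius cell-like, endothelial-like and pericyte-like cells for 5 each. It lay in dividing neural progenitor-like or oligodendrocyte precursor-like cells for 0 genes. No share of all tested genes is given for these counts, so they describe the guidance genes and cannot be read as particular to them. Summed over the 68 guidance genes, the level ran from 456 ± 77.6 CPM (SD, n = 2) in microglia-like cells to 3320 ± 133 CPM in excitatory neuron-like cells. The next highest sums were 1836 ± 149 CPM in interneuron-like and 1621 ± 277 CPM in Cajal-Retzius cell-like cells. Their libraries overlapped, at 1731 and 1942 CPM against 1817 and 1425 CPM.

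**Figure D1:**
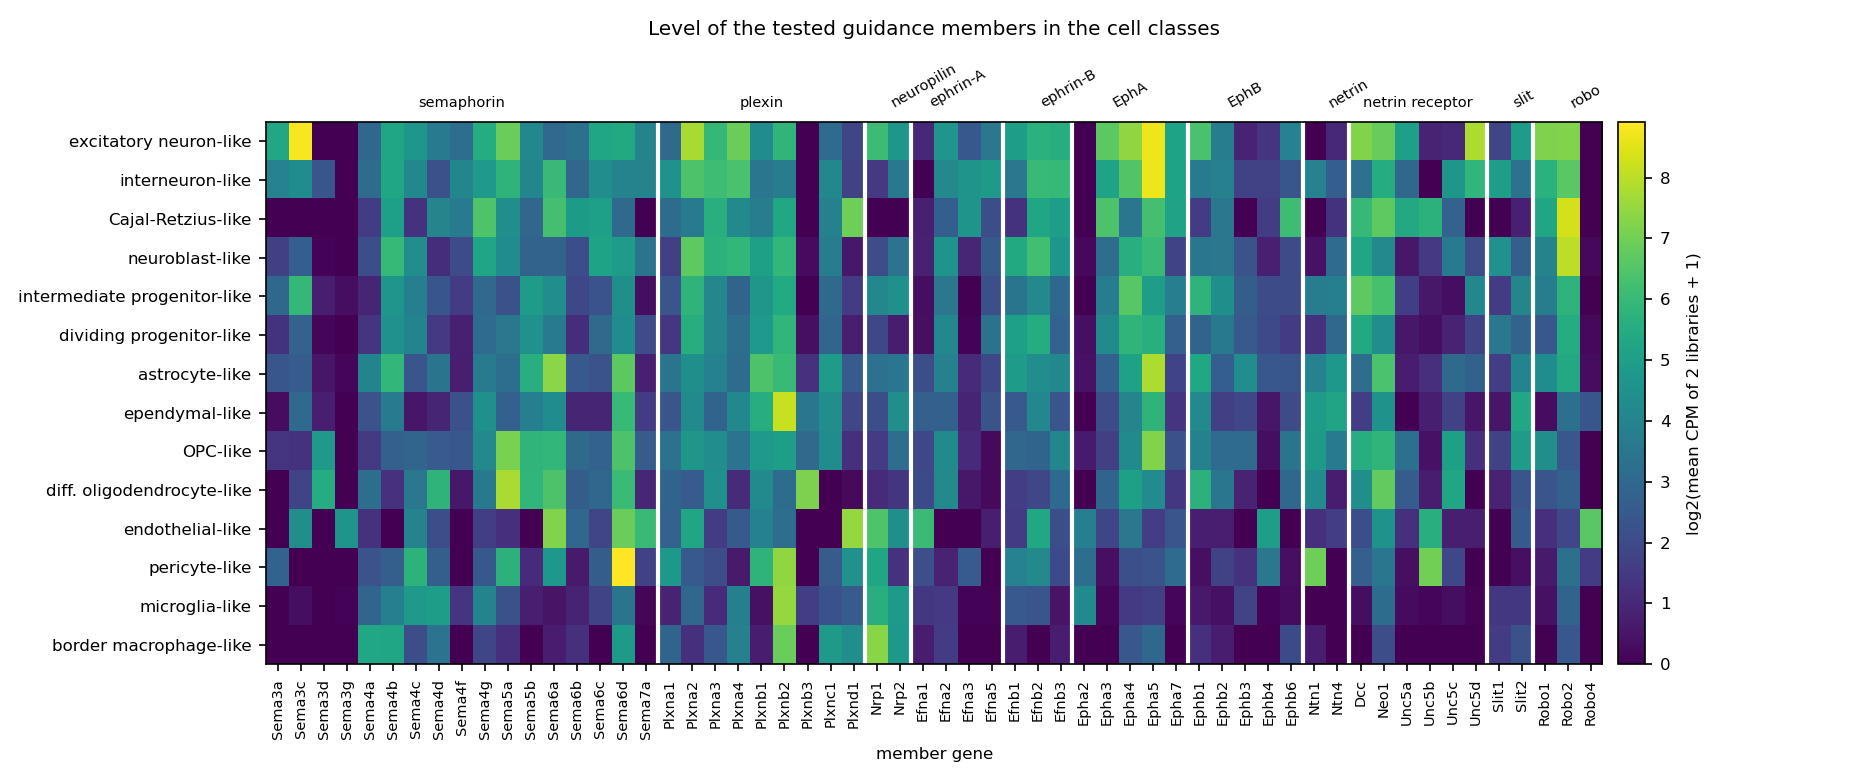
Heat map of the 58 tested guidance genes (columns, grouped by family) in the 14 cell classes (rows); colour gives log2 of the mean CPM of 2 libraries plus 1. The excitatory neuron-like row is bright over many families, while Robo4 stands out in endothelial-like cells and Plxnb3 in differentiating oligodendrocyte-like cells.

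A member was called when the edgeR adjusted p was under 0.05, the log2 difference was at least 1, and its CPM lay on the same side of the mean of the other classes in both libraries. The fitted difference sets a class against the mean of the logs of the other 13 classes, so a gene near 0 in several of them can be called with a small difference in CPM. Dcc in dividing neural progenitor-like cells, at 35.4 and 48.2 CPM against a mean of 33.8 and 34.6 CPM elsewhere, was called with a log2 difference of 2.26. A class at 0 UMIs in both libraries also bears on every other class: the fit can meet the comparison by moving that class alone, which favours calls of higher and can prevent calls of lower. Of the 60 tested members 35 (58.3%) had such a class, against 26.8% of all genes. The counts of lower members may therefore be too small, and the shares of members and of all genes called may not be like for like. DESeq2, another fit of the same sums, gave other counts of lower members in several classes, which are given below. How classes at 0 bear on either fit was not tested. The genes that set the clusters and the class markers were left out of all genes tested, while the members were kept out of clustering and so stayed in. The share of all genes therefore lacks many genes that vary most between cells, and an excess of members over it cannot be read as particular to them. For this reason the counts are also given for called members at least 2-fold apart by CPM in each library, and for members at least 2-fold lower by CPM alone, 2 rules chosen after seeing the data. Both use the plain mean of the other classes, which a single high class can raise. Sema3c in endothelial-like cells stood at 19.9 and 20.8 CPM against 40.2 and 46.3 CPM. It counted as lower by CPM alone, with a fitted log2 difference of 3.11. A gene high in few classes can so count as lower in many others. An excess of members lower by CPM alone therefore cannot be read as a general lack of them. Comparisons of 2 classes use no mean of other classes, but their shares of all genes also lack the clustering genes and the markers.

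**Figure D2:**
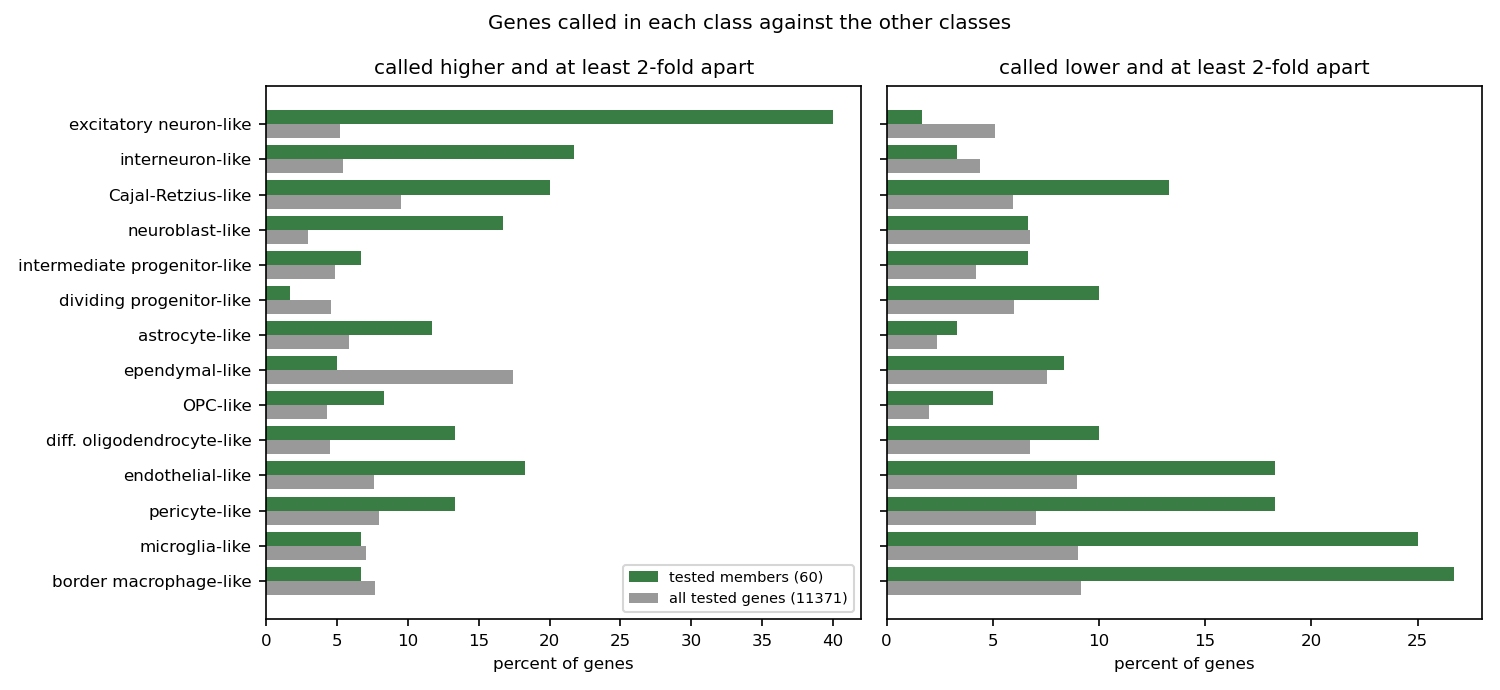
Bars give the percent of the 60 tested members (green) and of all 11371 tested genes (grey) that were called higher (left) or lower (right) and at least 2-fold apart in each class against the other classes. Members stand at 40% against 5.2% in excitatory neuron-like cells on the left, and at 26.7% against 9.16% in border macrophage-like cells on the right.

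Excitatory neuron-like cells had the most members at a high level: 32 of 60 were called higher, where 9.99% of all genes were, and 1 was called lower, where 6.31% were. 24 of them were also at least 2-fold higher by CPM, against 5.2%, and 1 at least 2-fold lower, against 5.08% (median log2 difference 1.67 over the 60 members and -0.06 for all genes). Whatever the test gave, 14 members (23.3%) were at least 2-fold lower by CPM, against 23.3% of all genes. The higher members held both ligands and receptors. Sema3c, a secreted semaphorin, stood at 421 and 490 CPM against 9.33 and 10.3 CPM in the other classes, a 46.5-fold difference (log2 difference 7.54 ± 0.18 SE, edgeR adjusted p = 1.4e-172). The SE, here and below, was worked back from the F statistic of the test. Sema3c had 0 UMIs in both libraries in pericyte-like, border macrophage-like and Cajal-Retzius cell-like cells. Its log2 difference therefore also depends on how such classes are fitted, which the SE does not measure. An unnamed cluster outside the 14 classes held Sema3c at 393 and 450 CPM. Unc5d, a netrin receptor that is known from migrating cortical neurons, stood at 202 and 248 CPM against 7.11 and 6.39 CPM (33.3-fold, edgeR adjusted p = 1.7e-107). Sema3a, the founding repulsive semaphorin, stood at 46.4 and 31.8 CPM against 1.37 and 4.32 CPM (edgeR adjusted p = 1.3e-25). Robo1, a slit receptor, stood at 136 and 155 CPM against 13.5 and 11.9 CPM (11.5-fold, edgeR adjusted p = 7.5e-68). In none of these 4 genes did the excitatory neuron-like libraries overlap those of the other classes' mean. Sema6a, a transmembrane semaphorin, was the 1 member called lower, at 8.01 and 6.36 CPM against 49.4 and 55.2 CPM (edgeR adjusted p = 0.0016). With DESeq2 the lower members numbered 2. Counts of members by DESeq2, here and below, are given without the share of all genes that DESeq2 called.

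Set directly against interneuron-like cells, excitatory neuron-like cells had 11 members called higher, where 2.24% of all genes were, and 3 called lower, where 3.03% were. At least 2-fold apart as well were 10 higher, against 1.67%, and 3 lower, against 2.37% (median log2 difference 0.47 over the 60 members and 0.02 for all genes). Nrp1, which binds class 3 semaphorins, stood at 65.7 and 72.1 CPM in excitatory neuron-like cells, and interneuron-like cells held 0 and 1 UMI of it, or 0 and 3.58 CPM (edgeR adjusted p = 1.6e-07). Dcc, the attractive netrin receptor, stood at 154 and 142 CPM against 14.5 and 3.58 CPM (16.4-fold, edgeR adjusted p = 7.2e-14). Sema3c was 23.8-fold higher, with 9.67 and 28.7 CPM in interneuron-like cells (edgeR adjusted p = 9.5e-35). Ephb1 was 7.08-fold higher, at 72.1 and 89.1 CPM against 4.83 and 17.9 CPM (edgeR adjusted p = 1.9e-05). These libraries did not overlap for any of the 4. The transmembrane ligand Sema6a went the other way, at 67.7 and 60.9 CPM in interneuron-like cells (8.95-fold, edgeR adjusted p = 4.7e-06). The other lower members by the 2-fold rule were Slit1, a secreted repellent at 24.2 and 35.8 CPM in interneuron-like cells against 3.20 and 2.12 CPM, and Unc5c, a netrin receptor at 14.5 and 35.8 CPM against 0 and 2.12 CPM; both were chosen after their values were seen.

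Interneuron-like cells against all other classes had 22 members called higher, where 9.34% of all genes were, and 2 called lower, where 5.54% were. The 2-fold rule left 13 higher, against 5.45%, and 2 lower, against 4.38% (median log2 difference 1.47 over the 60 members and -0.16 for all genes). Without the test, 12 members (20%) stood at least 2-fold lower, against 22.2% of all genes. Epha5, a receptor of ephrin-A ligands, stood at 406 and 408 CPM against 84.5 CPM in both libraries elsewhere (4.82-fold, edgeR adjusted p = 3.1e-63). Epha5 was just as abundant in excitatory neuron-like cells, at 407 and 424 CPM, and the 2 classes were within 1.02-fold of each other. Efnb3, an ephrin of the membrane-spanning type, stood at 43.5 and 78.8 CPM against 11.5 and 13.9 CPM (edgeR adjusted p = 7.9e-12). Unc5d, at 53.2 and 60.9 CPM, and Robo1, at 43.5 and 57.3 CPM, were both called higher but lay below excitatory neuron-like cells in both libraries. Plxnb2 and Sema6d were the 2 called lower, at 14.5 and 10.7 CPM and at 19.3 and 10.7 CPM. Neither was called with stricter limits on cells, where the log2 differences were -0.79 and -0.81.

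In Cajal-Retzius cell-like cells, the reelin-producing neurons of the outermost cortical layer, 19 members were called higher, where 13.8% of all genes were, and 8 lower, where 8.13% were. Of these, 12 higher members, against 9.53%, and 8 lower, against 5.95%, met the 2-fold rule (median log2 difference 0.04 over the 60 members and -0.11 for all genes). Whatever the test gave, 24 members (40%) were at least 2-fold lower by CPM, against 22.9% of all genes. The receptors Unc5b, at 65.3 and 39.6 CPM, and Unc5a, at 38.4 and 42.6 CPM, stood 3.74-fold and 9.17-fold above the other classes (edgeR adjusted p = 1.1e-25 and 1.5e-22). Plxnd1, the receptor of Sema3e, stood at 154 and 93.9 CPM against 19.4 and 18.2 CPM (6.59-fold, edgeR adjusted p = 7.7e-50). Ephb6, an Eph receptor without kinase activity, stood at 104 and 35.2 CPM against 4.62 and 3.81 CPM (edgeR adjusted p = 5.2e-26), and its libraries differed from each other by more than 2-fold. Nrp1 had 0 UMIs in both libraries, where 3 UMIs would be 11.5 and 4.40 CPM, against 36.7 and 31.2 CPM elsewhere (edgeR adjusted p = 5.9e-05). Sema6d, a transmembrane semaphorin, was also lower, at 11.5 and 2.94 CPM against 81.7 and 84.3 CPM (edgeR adjusted p = 5.3e-10). The class also held the highest level of Robo2, a slit receptor, at 315 and 329 CPM, a value chosen after it was seen. With DESeq2 the lower members numbered 5.

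Neuroblast-like cells had 17 members called higher, where 9.83% of all genes were, and 4 called lower, where 6.79% were. 10 of them were also at least 2-fold higher by CPM, against 2.93%, and 4 at least 2-fold lower, against 6.75% (median log2 difference 0.99 over the 60 members and 0.10 for all genes). Counted by CPM alone, 29 members (48.3%) were at least 2-fold lower, against 30.6% of all genes. Robo2 stood at 248 and 269 CPM against 57.4 and 57.7 CPM (4.49-fold, log2 difference 4.10 ± 0.10 SE, edgeR adjusted p = 4.9e-164). Its ligand Slit1 stood at 20.1 and 22.9 CPM against 4.08 and 4.33 CPM (5.12-fold, edgeR adjusted p = 4.2e-41). The ephrin Efnb2, at 70.9 and 75.0 CPM, and the transmembrane semaphorin Sema6c, at 30.7 and 39.4 CPM, were 2.96-fold and 3.56-fold higher (edgeR adjusted p = 1.4e-65 and 9.2e-56). Each of these 4 genes was above the mean of the other classes in both libraries, and both libraries gave near the same level. Plxnd1 was lower at 0.131 and 0.869 CPM against 31.2 and 25.3 CPM (edgeR adjusted p = 1.1e-07), and Sema4d at 1.31 and 1.16 CPM against 12.1 and 11.8 CPM (edgeR adjusted p = 2.1e-10). DESeq2 called 12 members lower. Of all genes, 1118 were called higher and 772 lower in this class, and 919 and 955 with RLE scaling. At least 2-fold apart in a single library were 11 of the 17 higher members without library 1 and 9 without library 2. Such counts in a single library, here and below, were taken after adding 1 CPM to both levels. The 2-fold rule adds nothing, so the counts can differ.

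The step from dividing neural progenitor-like to neuroblast-like cells was compared directly. Here 20 members were called higher in neuroblast-like cells, where 9.66% of all genes were, and 5 lower, where 11.1% were. At least 2-fold apart as well were 16 higher, against 6.59%, and 5 lower, against 9.98% (median log2 difference 0.51 over the 60 members and 0.09 for all genes). Among the higher members, the receptor Plxna4 stood at 62.0 and 55.6 CPM against 6.56 and 10.3 CPM (6.97-fold, edgeR adjusted p = 2.8e-50), Unc5c at 14.8 and 7.96 CPM against 0.215 and 1.39 CPM (14.1-fold, edgeR adjusted p = 3.3e-19), and Nrp2 at 11.1 and 7.82 CPM against 0.753 and 0.557 CPM (14.5-fold, edgeR adjusted p = 1.3e-19). Unc5b passed as well, but only at 1.31 and 2.32 CPM (edgeR adjusted p = 0.00059). On the lower side, Sema5b fell from 26.0 and 17.3 CPM in dividing neural progenitor-like cells to 6.93 and 5.21 CPM (edgeR adjusted p = 5.5e-16). Ntn1, Ephb4 and Epha7 were lower at levels under 7 CPM in both classes, and Ephb4 was not called at a finer clustering (edgeR adjusted p = 0.21), with doublets kept (0.11) or with stricter limits on cells (0.15), nor Epha7 with stricter limits (0.22). Without library 2, 2 of the 5 lower members were at least 2-fold apart in library 1 with 1 CPM added to both levels. All 5 were at least 2-fold apart without this addition. The count of higher members was 13 at a finer clustering and 13 with stricter limits on cells. Both counts are given without the share of all genes called in that setting.

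Across the single clusters of this lineage the level of Robo2 was graded, a pattern chosen after its values were seen and given with no test. The 2 clusters named dividing neural progenitor-like held 4.36 and 6.93 CPM in one and 76.6 and 84.4 CPM in the other. The 3 clusters named neuroblast-like held 102 and 135 CPM, 305 and 332 CPM, and 369 and 352 CPM. The order of the 5 clusters was the same in both libraries.

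Dividing neural progenitor-like cells against all classes had 9 members called higher, where 8.92% of all genes were, and 6 lower, where 6.26% were. The 2-fold rule left 1 higher, against 4.58%, and 6 lower, against 6.02% (median log2 difference -0.21 over the 60 members and 0.02 for all genes). The higher count thus rested mainly on small differences in CPM. Whatever the test gave, 35 members (58.3%) were at least 2-fold lower by CPM, against 28.4% of all genes. The 1 higher member by the 2-fold rule was Efnb1, an ephrin of the membrane-spanning type, at 34.1 and 29.5 CPM against 13.3 and 10.96 CPM (edgeR adjusted p = 3.4e-30). Slit1, at 13.7 and 7.80 CPM, and Efna5, at 8.82 and 9.20 CPM, passed the test at about 2-fold. Sema6d, at 17.3 and 20.6 CPM, and Sema4d, at 1.61 and 1.95 CPM, were called lower. The call of Sema6d was lost with doublets kept and with stricter limits on cells, and that of Dcc with stricter limits, where the log2 differences of Sema6d were -0.92 and -0.43. Dcc kept a log2 difference of 1.86 there and missed the rule on the same side in both libraries. Without library 1 or without library 2, 2 of the 9 higher members were at least 2-fold apart in the other library. By DESeq2, 14 members were called lower.

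Intermediate progenitor-like cells, which give rise to excitatory neurons, had 11 members called higher, where 9.49% of all genes were, and 4 lower, where 4.61% were. Of these, 4 higher members, against 4.88%, and 4 lower, against 4.19%, met the 2-fold rule (median log2 difference 0.53 over the 60 members and 0.05 for all genes). Counted by CPM alone, 24 members (40%) were at least 2-fold lower, against 22.6% of all genes. Dcc stood at 99.3 and 106 CPM against 28.9 and 30.1 CPM (3.48-fold, edgeR adjusted p = 1.8e-58), and Ephb1 at 50.9 and 59.6 CPM against 18.3 CPM in both libraries (3.02-fold, edgeR adjusted p = 2.6e-31). Dcc, Epha4, Ephb1 and Ephb2 were the 4 genes by the 2-fold rule. Sema3c, at 63.0 and 56.9 CPM, was called higher against a mean of 36.9 and 43.6 CPM that excitatory neuron-like cells raise. Ntn4 was called at 10.6 and 15.9 CPM against 6.33 and 8.93 CPM, and missed the rule on the same side with stricter limits on cells. Sema5a, at 4.53 and 2.65 CPM, and Sema6d, at 20.2 and 21.2 CPM, were called lower. Both calls were lost with doublets kept (edgeR adjusted p = 0.79 for Sema5a; log2 difference -0.88 for Sema6d) and with stricter limits on cells, and that of Sema6d also at a finer clustering. Without library 1, 4 of the 11 higher members were at least 2-fold apart in library 2, and 5 without library 2. With stricter limits 21 members were called higher and 1 lower, given without the share of all genes called under those limits.

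**Figure D3:**
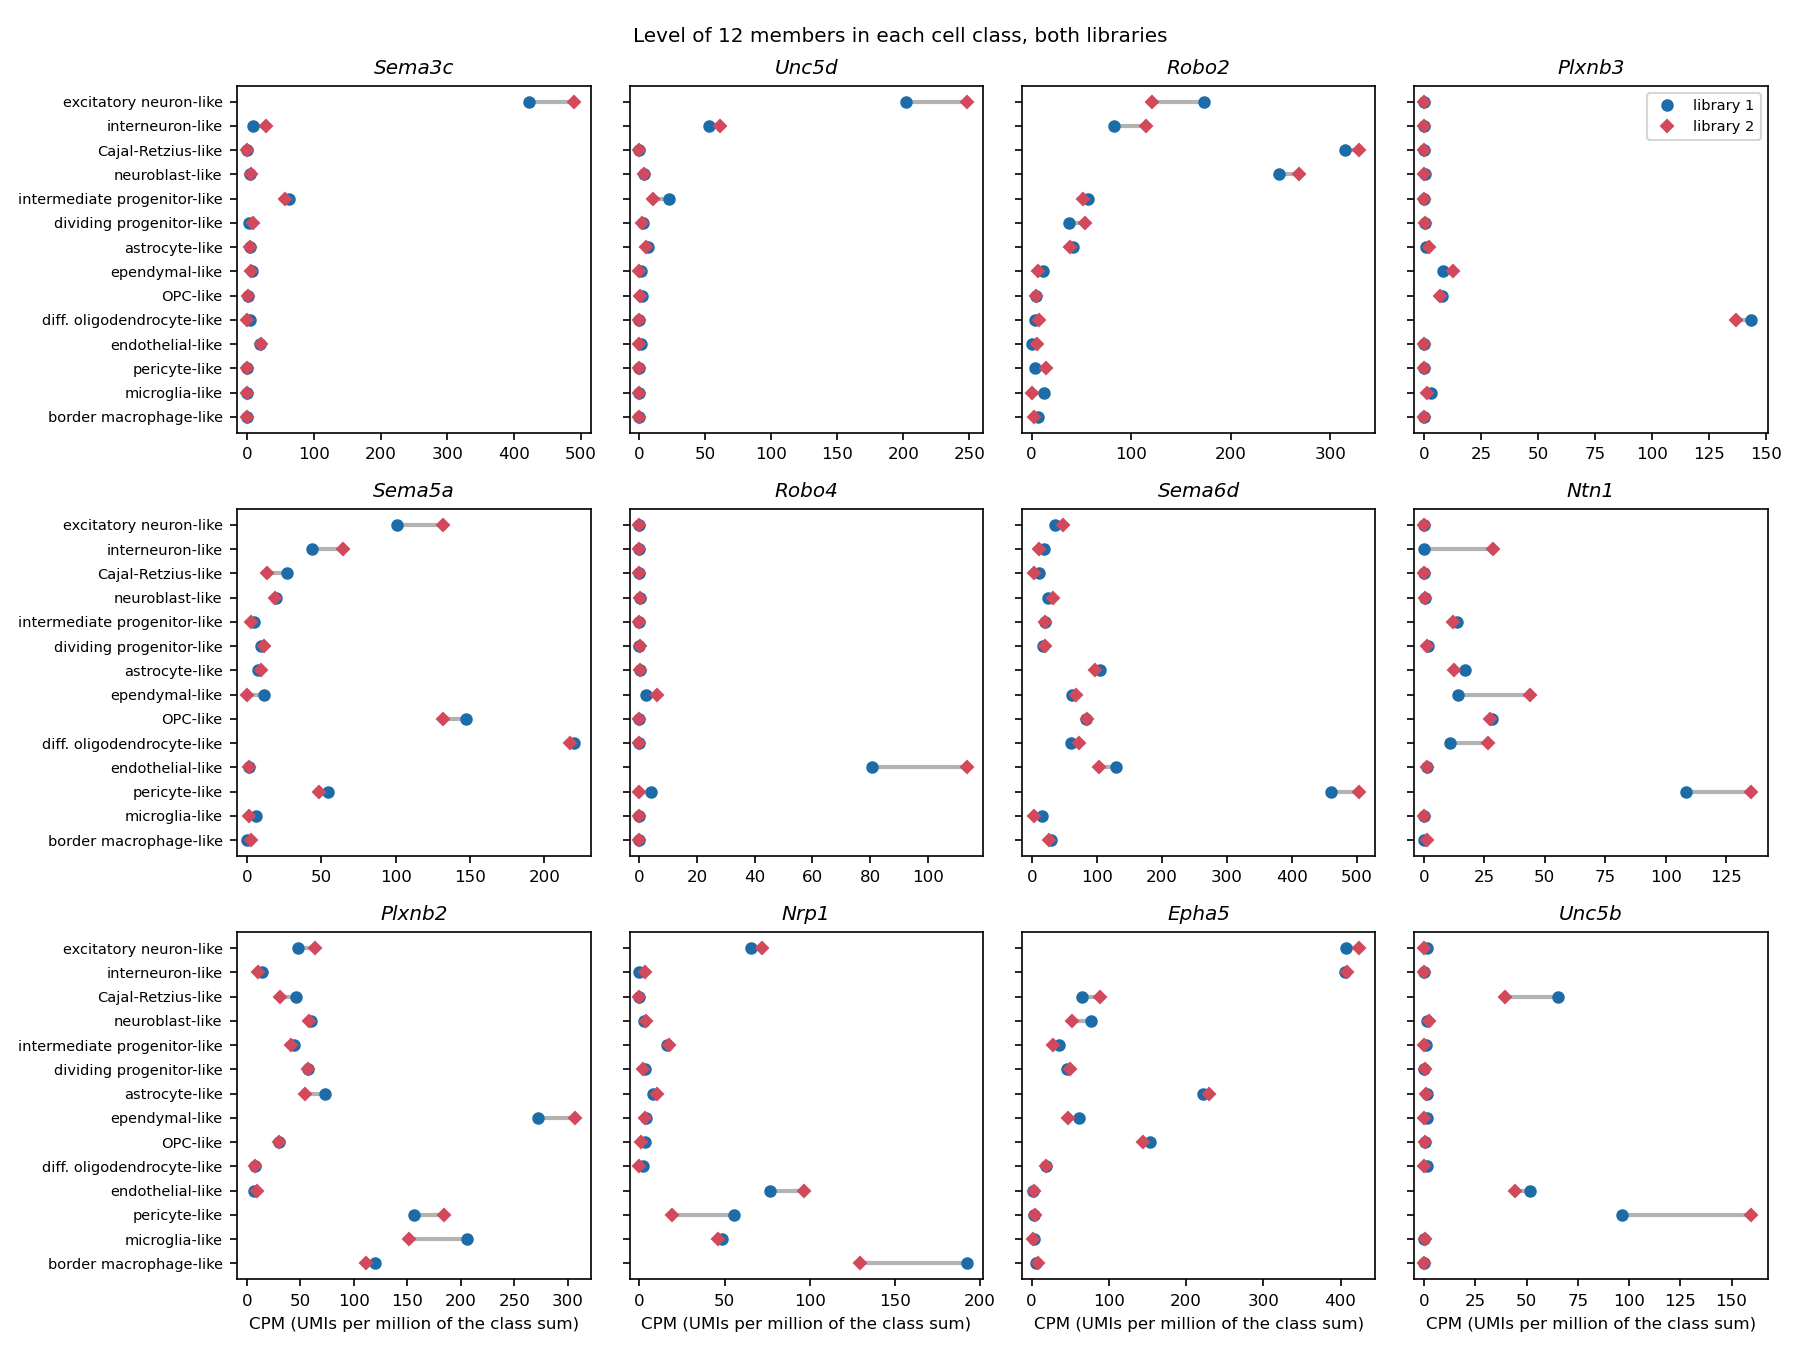
Level in CPM (x axis, linear) of 12 members in each of the 14 classes (y axis); circles are library 1, diamonds are library 2, and the grey line joins them. Of the 14 classes, Sema3c and Unc5d stand apart in excitatory neuron-like cells, Plxnb3 in differentiating oligodendrocyte-like, Robo4 in endothelial-like, and Sema6d and Ntn1 in pericyte-like cells, in both libraries.

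Among glia, astrocyte-like cells had 15 members called higher, where 11.9% of all genes were, and 2 lower, where 2.59% were. 7 of them were also at least 2-fold higher by CPM, against 5.87%, and 2 at least 2-fold lower, against 2.38% (median log2 difference 0.65 over the 60 members and 0.07 for all genes). Without the test, 24 members (40%) stood at least 2-fold lower, against 16.3% of all genes. Ephb3, an ephrin-B receptor, stood at 21.5 and 17.4 CPM against 2.995 and 1.92 CPM (7.91-fold, edgeR adjusted p = 1.4e-27). Sema6a stood at 157 and 168 CPM against 38.0 and 42.7 CPM (4.03-fold, edgeR adjusted p = 8.3e-104), and its level in endothelial-like cells, 124 and 173 CPM, overlapped that of astrocyte-like cells. The netrin Ntn4, at 32.2 and 20.4 CPM, and the semaphorin Sema5b, at 58.1 and 39.4 CPM, were 3.96-fold and 2.81-fold higher (edgeR adjusted p = 3.9e-33 and 4.1e-44). Sema4c, at 2.15 and 6.43 CPM, and Sema5a, at 7.10 and 9.64 CPM, were called lower. Sema5a was not called with doublets kept (log2 difference -0.86) or with stricter limits on cells (-0.68). With DESeq2 the lower members numbered 5. Without library 1, 7 of the 15 higher members were at least 2-fold apart in library 2.

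Oligodendrocyte precursor-like cells had 15 members called higher, where 10.4% of all genes were, and 3 lower, where 2.13% were. At least 2-fold apart as well were 5 higher, against 4.31%, and 3 lower, against 2.01% (median log2 difference 0.70 over the 60 members and 0.08 for all genes). Whatever the test gave, 26 members (43.3%) were at least 2-fold lower by CPM, against 18.2% of all genes. Sema3d, a secreted semaphorin, stood at 27.8 and 26.6 CPM against 4.74 and 3.03 CPM (7-fold, edgeR adjusted p = 1.3e-55). Unc5c stood at 33.9 and 30.9 CPM against 6.51 and 8.29 CPM (4.37-fold, edgeR adjusted p = 7.9e-40). Its ligand Ntn1 was also called, at 28.0 and 27.4 CPM against 12.9 and 20.2 CPM (edgeR adjusted p = 5.7e-36). Sema5b was 3.30-fold higher, at 57.1 and 53.9 CPM (edgeR adjusted p = 1.5e-48). Robo2 was lower, at 4.42 and 4.30 CPM against 76.1 and 78.0 CPM (edgeR adjusted p = 2.6e-14), and so was Plxnd1, at 0.982 and 1.56 CPM against 31.2 and 25.3 CPM (edgeR adjusted p = 0.00013). Without library 1 or without library 2, 6 of the 15 higher members were at least 2-fold apart in the other. By DESeq2, 12 members were called lower in this class.

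Astrocyte-like and oligodendrocyte precursor-like cells differed directly in 20 members higher in astrocyte-like cells, where 12.3% of all genes were, and 9 lower, where 8.81% were. The 2-fold rule left 17 higher, against 10.1%, and 9 lower, against 7.47% (median log2 difference 0.33 over the 60 members and -0.02 for all genes). Robo2, at 41.8 and 38.8 CPM against 4.42 and 4.30 CPM, and Sema4b, at 57.6 and 58.9 CPM against 6.55 and 4.69 CPM, were 9.25-fold and 10.4-fold higher in astrocyte-like cells (edgeR adjusted p = 4.6e-33 and 4.3e-44). Ephb4 and Efna5 also passed at under 5 CPM, and Efna5 was not called with stricter limits on cells (edgeR adjusted p = 0.11). Oligodendrocyte precursor-like cells were higher in Sema5a, at 147 and 132 CPM against 7.10 and 9.64 CPM (16.7-fold, edgeR adjusted p = 8.9e-81), in Sema3d (58.6-fold, edgeR adjusted p = 1.7e-29), in Unc5a, at 9.49 and 7.43 CPM (13.4-fold, edgeR adjusted p = 3.4e-10), and in Sema7a, at 4.09 and 5.86 CPM (7.10-fold, edgeR adjusted p = 1.1e-05). None of these overlapped between the classes.

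Differentiating oligodendrocyte-like cells, which carried markers of committed precursors and of oligodendrocytes, had 11 members called higher, where 9.34% of all genes were, and 6 lower, where 7.65% were. Of these, 8 higher members, against 4.53%, and 6 lower, against 6.73%, met the 2-fold rule (median log2 difference 0.12 over the 60 members and -0.03 for all genes). Without the test, 32 members (53.3%) stood at least 2-fold lower, against 27.7% of all genes. Plxnb3, a plexin known from oligodendrocytes, stood at 144 and 137 CPM against 1.59 and 1.79 CPM (83.2-fold, log2 difference 9.20 ± 0.31 SE, edgeR adjusted p = 4.7e-113). Pericyte-like and endothelial-like cells, among others, held 0 UMIs of Plxnb3, so the limit given for the SE of Sema3c holds here too. Sema5a stood at 220 and 217 CPM against 33.3 and 33.6 CPM (6.53-fold, edgeR adjusted p = 1.6e-115). Sema3d, at 54.4 and 34.3 CPM, rested on 171 and 9 UMIs and was 17.3-fold higher (edgeR adjusted p = 4.2e-63), and Unc5c, at 34.4 and 41.9 CPM, was 5.48-fold higher (edgeR adjusted p = 1.0e-30). DESeq2 called 12 members lower here. Plxnb2 was lower, at 7.95 and 7.61 CPM against 87.1 and 85.1 CPM (11.1-fold, edgeR adjusted p = 2.5e-21), and so was Robo2, at 3.82 and 7.61 CPM (13.5-fold, edgeR adjusted p = 3.6e-08).

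To show the sequence before the start sites of Plxnb3 and Sema3d, the 250 bases upstream were taken from RefSeq on GRCm38.p6, the assembly that mm10 names, without bases of any GENCODE M21 exon. Capitals mark ACAAAG, the core of the motif of SOX factors, or its reverse complement.
Plxnb3, chrX:73756853-73757089, plus strand: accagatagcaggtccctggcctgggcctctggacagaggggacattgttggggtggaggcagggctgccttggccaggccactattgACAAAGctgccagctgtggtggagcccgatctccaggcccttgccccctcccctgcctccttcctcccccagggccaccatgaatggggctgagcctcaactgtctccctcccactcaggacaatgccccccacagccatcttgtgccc
Sema3d, chr5:12382916-12383165, plus strand: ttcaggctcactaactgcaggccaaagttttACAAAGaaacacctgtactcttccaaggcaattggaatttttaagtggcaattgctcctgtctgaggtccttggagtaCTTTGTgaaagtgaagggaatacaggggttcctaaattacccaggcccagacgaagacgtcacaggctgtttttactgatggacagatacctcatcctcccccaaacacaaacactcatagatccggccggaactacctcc
The Sema3d window ends just before the start in the RefSeq table, and the GENCODE M21 gene starts further downstream, at position 12383385. Plxnb3 holds 1 match and Sema3d 2. The letters are in 16.5% of the 32851 windows of this length in the table, and in the windows of 2 of the 8 members higher in differentiating oligodendrocyte-like cells by the 2-fold rule. Those 2 members are the 2 shown here, Plxnb3 and Sema3d. The marked stretches are matches of letters and show no binding.

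The step from oligodendrocyte precursor-like to differentiating oligodendrocyte-like cells had 6 members called higher, where 5.43% of all genes were, and 14 called lower, where 11.9% were. 4 of them were also at least 2-fold higher by CPM, against 3.41%, and 13 at least 2-fold lower, against 10.1% (median log2 difference -0.24 over the 60 members and -0.11 for all genes). Plxnb3 went from 8.02 and 7.04 CPM to 144 and 137 CPM (18.7-fold, edgeR adjusted p = 2.3e-40). Sema4d, a transmembrane semaphorin, went from 4.42 and 5.47 CPM to 72.2 and 38.1 CPM (11.1-fold, edgeR adjusted p = 3.0e-44), with 10 UMIs behind the value of library 2. Ephb1 went from 14.4 and 14.1 CPM to 63.0 and 41.9 CPM (3.68-fold, edgeR adjusted p = 3.8e-22), and Sema4a was 4.48-fold higher at 9.22 and 7.61 CPM (edgeR adjusted p = 2.9e-05). The level of Sema4a in library 2 lay below 11.4 CPM, the value of 3 UMIs in that class and library. The receptor Epha5 went down from 153 and 145 CPM to 18.4 and 19.0 CPM (7.95-fold lower, edgeR adjusted p = 5.8e-34), and the repellent Slit2 from 29.0 and 28.1 CPM to 4.45 and 3.81 CPM (6.91-fold lower, edgeR adjusted p = 5.6e-11). Plxnc1 had 0 UMIs in differentiating oligodendrocyte-like cells, where 3 UMIs would be 0.954 and 11.4 CPM, against 18.8 and 18.4 CPM in precursors (edgeR adjusted p = 1.9e-15). Ntn4 stood at 1.27 and 0 CPM against 9.33 and 13.7 CPM (edgeR adjusted p = 4.2e-05). The libraries of the 2 classes did not overlap for any of these 8 members. Sema5a and Sema3d, high in both classes, were not called between them.

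**Figure D4:**
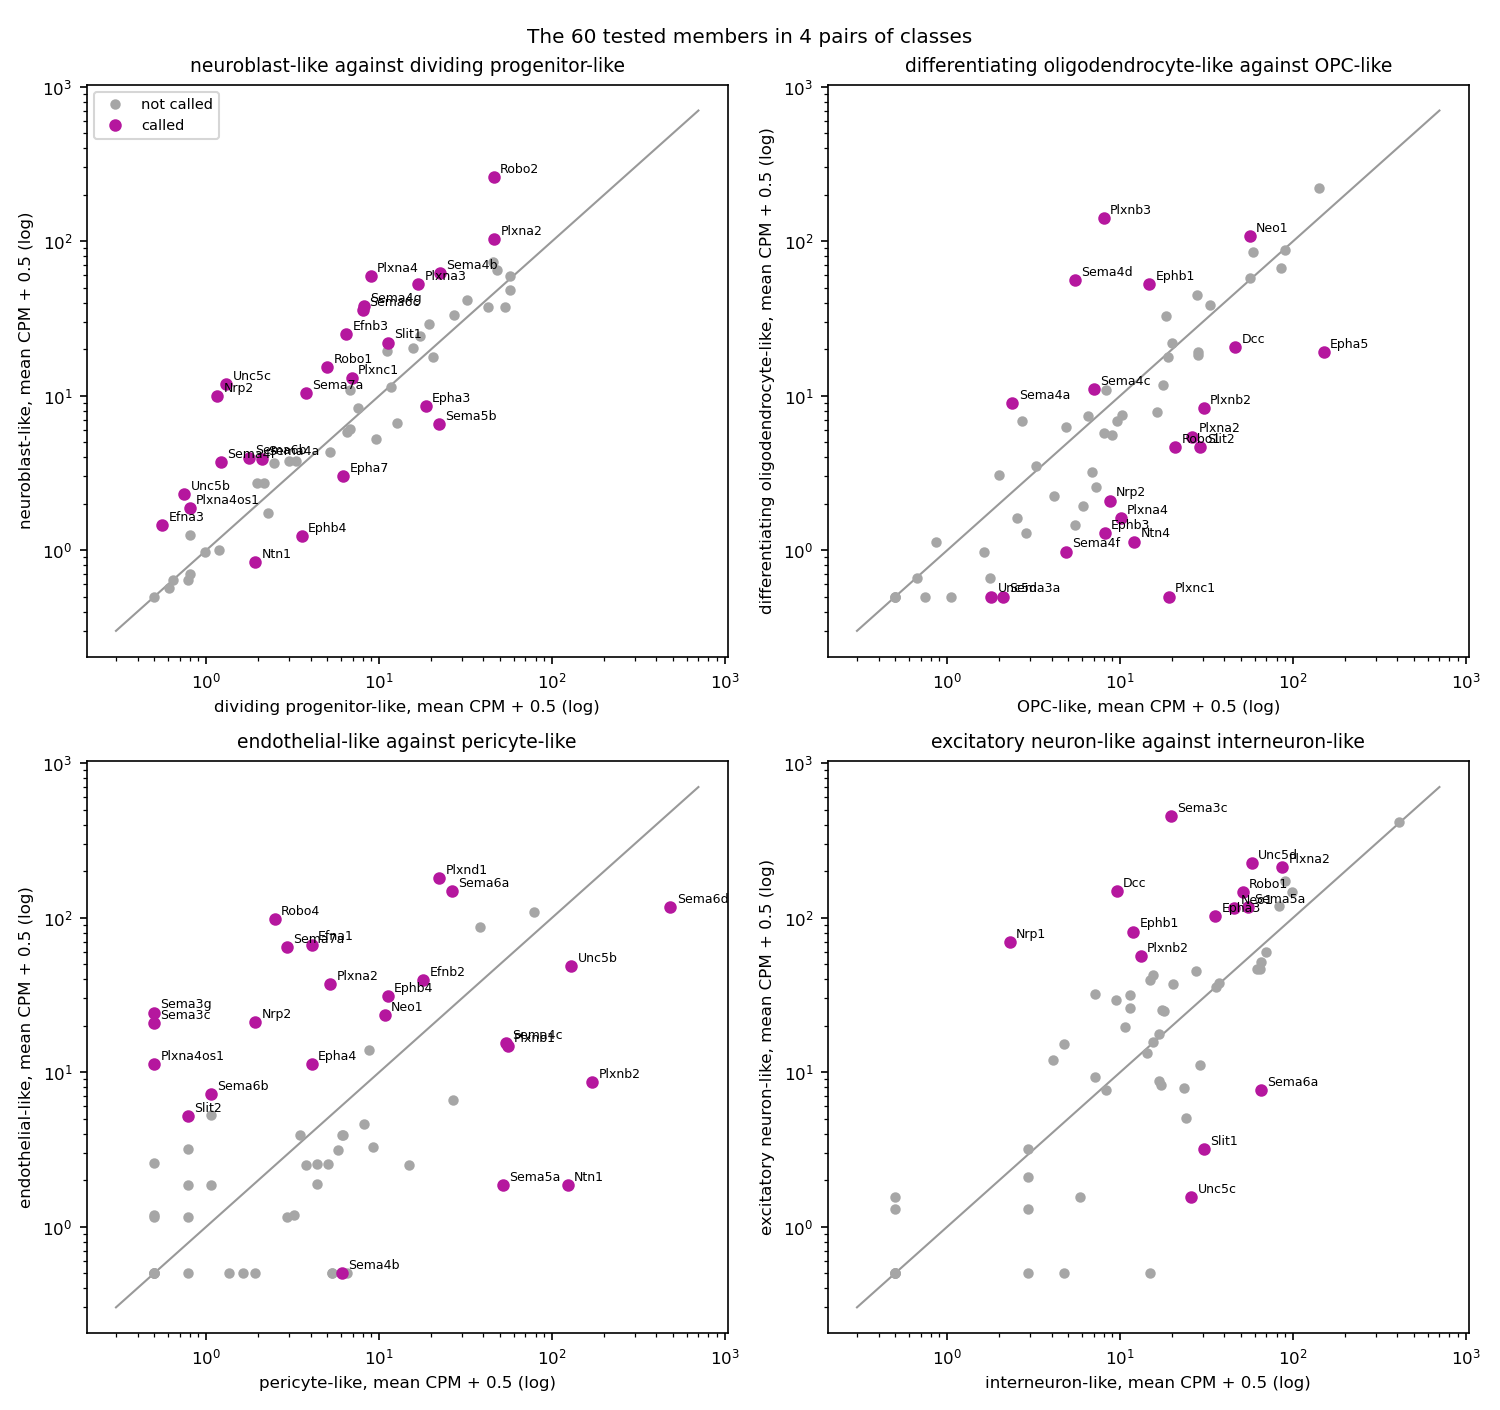
Mean CPM plus 0.5 of the 60 tested members in 4 pairs of classes, on log axes; each point is a member, called ones are purple with their symbol, and the line marks equal levels. Robo2 lies above the line for neuroblast-like cells, Plxnb3 and Sema4d for differentiating oligodendrocyte-like cells, Robo4 and Plxnd1 for endothelial-like cells, and Sema3c, Dcc and Nrp1 for excitatory neuron-like cells.

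Endothelial-like cells had 13 members called higher, where 13.9% of all genes were, and 11 lower, where 9.16% were. At least 2-fold apart as well were 11 higher, against 7.63%, and 11 lower, against 8.98% (median log2 difference -0.71 over the 60 members and -0.08 for all genes). Counted by CPM alone, 37 members (61.7%) were at least 2-fold lower, against 30.3% of all genes. Robo4, the endothelial robo, stood at 80.8 and 114 CPM against 0.504 and 0.534 CPM (187-fold, edgeR adjusted p = 1.9e-88). Its call was lost with DESeq2 (adjusted p = 0.13), and over its other alternatives it was kept. Efna1, an ephrin-A ligand, stood at 63.6 and 69.2 CPM against 1.62 and 2.06 CPM (36.1-fold, edgeR adjusted p = 1.4e-55). Sema3g, a secreted semaphorin, stood at 21.2 and 26.3 CPM, with 16 and 19 UMIs, and the other 13 classes together held 2 and 1 UMIs (edgeR adjusted p = 1.0e-30), a call also lost with DESeq2 (adjusted p = 0.33). Epha2 was called at 21.2 and 5.54 CPM, from 16 and 4 UMIs, against 2.20 and 2.06 CPM (edgeR adjusted p = 9.9e-15). Epha5 was lower, at 1.32 and 2.77 CPM against 116 CPM in both libraries (edgeR adjusted p = 1.1e-13), and so was Plxnb2, at 6.62 and 9.69 CPM against 87.2 and 85.0 CPM (edgeR adjusted p = 6.8e-12).

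The sequences before the start sites of the endothelial receptors Robo4 and Ephb4, the latter at 29.1 and 31.8 CPM in endothelial-like cells, are shown in the same way, with capitals for GGAAG, the core of the motif of ETS factors, or its reverse complement. Ephb4 was chosen after its values were seen.
Robo4, chr9:37401722-37401896, plus strand: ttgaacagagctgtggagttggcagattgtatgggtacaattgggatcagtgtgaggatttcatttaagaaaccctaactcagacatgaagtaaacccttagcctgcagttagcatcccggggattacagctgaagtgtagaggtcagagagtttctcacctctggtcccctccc
Ephb4, chr5:137349859-137350108, plus strand: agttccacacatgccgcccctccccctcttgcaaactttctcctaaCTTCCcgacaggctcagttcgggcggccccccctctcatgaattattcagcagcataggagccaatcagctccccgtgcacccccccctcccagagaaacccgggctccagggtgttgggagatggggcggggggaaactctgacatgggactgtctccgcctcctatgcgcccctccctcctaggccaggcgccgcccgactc
Ephb4 holds 1 match. Robo4 holds 0 in the stretch shown and 2 in its full window, from which 75 exon bases were left out. Sema7a, another member higher in endothelial-like cells, held 0 in its window of 250 bases, and its sequence is not shown. The letters are in 64.1% of all windows, and in those of 7 of the 9 members with a window among the 11 higher in endothelial-like cells by the 2-fold rule.

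Pericyte-like cells, the contractile cells that wrap capillaries, had 10 members called higher, where 13.6% of all genes were, and 12 lower, where 7.85% were. The 2-fold rule left 8 higher, against 7.98%, and 11 lower, against 7.04% (median log2 difference -1.48 over the 60 members and 0.02 for all genes). Without the test, 33 members (55%) stood at least 2-fold lower, against 24.3% of all genes. Sema6d stood at 460 and 503 CPM against 47.2 and 45.8 CPM (10.4-fold, edgeR adjusted p = 4.4e-136). Ntn1 stood at 109 and 136 CPM against 6.68 and 11.9 CPM (13.1-fold, edgeR adjusted p = 2.0e-84), and its repulsive receptor Unc5b at 96.6 and 160 CPM against 9.66 and 6.79 CPM (15.6-fold, edgeR adjusted p = 3.7e-80). Ephb4 was called at 16.5 and 4.84 CPM, with 1 UMI behind the value of library 2, and the call was lost with stricter limits on cells and without the barcodes that occur in both libraries. Epha5, at 2.84 and 4.84 CPM, and Epha4, at 2.27 and 4.84 CPM, were lower than elsewhere (edgeR adjusted p = 6.1e-15 and 7.8e-09). By DESeq2, 20 members were called lower.

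Endothelial-like against pericyte-like cells had 16 members called higher, where 9.1% of all genes were, and 8 lower, where 10.2% were. Of these, 14 higher members, against 7.11%, and 7 lower, against 8.8%, met the 2-fold rule (median log2 difference 0.30 over the 60 members and -0.04 for all genes). Ntn1 stood at 1.32 and 1.38 CPM in endothelial-like cells, from 1 UMI in each library, against 109 and 136 CPM (edgeR adjusted p = 2.9e-28). Plxnb2 was 20.9-fold lower in endothelial-like cells, with 156 and 184 CPM in pericyte-like cells (edgeR adjusted p = 2.8e-30). Sema6d was 4.12-fold lower, at 130 and 104 CPM (edgeR adjusted p = 1.4e-24), and Sema5a stood at 1.32 and 1.38 CPM against 54.5 and 48.4 CPM (edgeR adjusted p = 8.9e-15). On the endothelial side, Sema7a, a membrane-anchored semaphorin, stood at 64.9 and 63.7 CPM against 0 and 1 UMI, or 0 and 4.84 CPM (edgeR adjusted p = 4.0e-18), and Efna1 was 18.7-fold higher (edgeR adjusted p = 2.1e-15). Sema3c, at 19.9 and 20.8 CPM, and Sema3g had 0 UMIs in pericyte-like cells, where 3 UMIs would be 1.70 and 14.5 CPM (edgeR adjusted p = 3.1e-09 and 7.7e-08). Sema3g was not called by DESeq2 (adjusted p = 0.67). Unc5b was high in both classes, at 51.6 and 44.3 CPM in endothelial-like cells, against 96.6 and 160 CPM, and was called lower (edgeR adjusted p = 0.0029) at under 2-fold in library 1.

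Ependymal-like cells, the ciliated lining of the ventricles, had 7 members called higher, where 22.7% of all genes were, and 6 lower, where 10.2% were. 3 of them were also at least 2-fold higher by CPM, against 17.4%, and 5 at least 2-fold lower, against 7.54% (median log2 difference -0.29 over the 60 members and 0.07 for all genes). Counted by CPM alone, 32 members (53.3%) were at least 2-fold lower, against 18.2% of all genes. The 3 higher by the 2-fold rule were Plxnb2, at 272 and 306 CPM against 66.8 and 62.2 CPM (4.48-fold, edgeR adjusted p = 2.5e-71), Slit2, at 35.2 and 43.8 CPM against 9.65 and 9.43 CPM (4.14-fold, edgeR adjusted p = 3.7e-20), and Ntn4, at 25.1 and 46.9 CPM against 5.21 and 6.55 CPM (6.13-fold, edgeR adjusted p = 6.3e-21). All 3 were above the other classes' mean in both libraries. Ntn1 was called at 14.2 and 43.8 CPM against 13.9 and 19.0 CPM, so its 2 libraries differed and library 1 stood close to the other classes. Without library 1, 4 of the 7 higher members were at least 2-fold apart in library 2, and 3 without library 2. Sema4c and Sema4d were lower, with 2 and 0 UMIs and with 4 and 0 UMIs (edgeR adjusted p = 1.0e-08 and 0.00027). By edgeR with RLE scaling 2 members were called lower, and 3 with stricter limits on cells. The shares of all genes called in those settings are not given beside them.

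Microglia-like and border macrophage-like cells had the lowest summed levels of the guidance genes. In microglia-like cells 7 members were called higher, where 16.4% of all genes were, and 15 lower, where 9.42% were. At least 2-fold apart as well were 4 higher, against 7.07%, and 15 lower, against 9% (median log2 difference -2.09 over the 60 members and 0.15 for all genes). Without the test, 45 members (75%) stood at least 2-fold lower, against 33.1% of all genes. DESeq2 called 36 members lower, a count that cannot be set beside the 9.42%, which is a share by edgeR. Epha2 stood at 21.2 and 15.1 CPM against 2.20 and 1.33 CPM (10.3-fold, edgeR adjusted p = 5.2e-34). Nrp1 stood at 48.4 and 46.4 CPM against 33.0 and 27.6 CPM (1.56-fold, edgeR adjusted p = 9.4e-46), and Sema4d at 18.1 and 41.9 CPM against 10.8 and 8.70 CPM (3.07-fold, edgeR adjusted p = 1.1e-51). Plxna4os1, one of the transcripts that match by symbol only, stood at 15.1 and 14.6 CPM against 3.02 and 1.27 CPM (edgeR adjusted p = 6.6e-32). No source used here gives the strand setting of the counting, so its reads and those of Plxna4 may be mixed. Epha5, at 3.02 and 1.40 CPM against 115 and 116 CPM, and Sema6d, at 15.1 and 4.31 CPM against 81.4 and 84.2 CPM, were lower (edgeR adjusted p = 7.9e-25 and 1.3e-21). In library 1 the class had 91 cells, so single UMIs weigh there.

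Border macrophage-like cells, the macrophages of the meninges and perivascular spaces, had 7 members called higher, where 14% of all genes were, and 16 lower, where 9.52% were. The 2-fold rule left 4 higher, against 7.68%, and 16 lower, against 9.16% (median log2 difference -2.42 over the 60 members and -0.10 for all genes). Whatever the test gave, 45 members (75%) were at least 2-fold lower by CPM, against 33.8% of all genes. Nrp1 stood at 192 and 129 CPM against 22.0 and 21.3 CPM (7.44-fold, edgeR adjusted p = 7.2e-59), and the semaphorin Sema4a at 36.0 and 43.5 CPM against 4.26 and 5.56 CPM (8.10-fold, edgeR adjusted p = 1.2e-18). Plxnc1, at 30.02 and 25.1 CPM, and Nrp2, at 24.0 and 27.7 CPM, were 2.55-fold and 2.15-fold higher (edgeR adjusted p = 1.6e-08 and 5.2e-07). In library 1 these levels rested on 5 and 4 UMIs, and that of Sema4a on 6. Microglia-like cells held Nrp2 at 27.2 and 26.3 CPM, and astrocyte-like cells held Plxnc1 at 37.6 and 19.6 CPM. Efnb2 had 0 UMIs in both libraries, where 3 UMIs would be 18.0 and 3.96 CPM, against 31.1 and 29.4 CPM elsewhere (edgeR adjusted p = 4.8e-06). Sema6a had 0 and 1 UMI against 50.1 and 55.6 CPM elsewhere (edgeR adjusted p = 6.7e-06). The class held the highest level of Nrp1 of the 14 classes in both libraries. Without library 2, 4 of the 7 higher members were at least 2-fold apart in library 1.

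The share of cells with a UMI was read after thinning each cell to 1000 UMIs and leaving out shallower cells, since classes differ in depth. Intervals are exact 95% binomial ones, the limits given for 0 cells are 3 counts of the cells read, and both cover counting error only. Unc5d was seen in 17.5% (12.7 to 23.1%) and 21.2% (15.2 to 28.2%) of excitatory neuron-like cells, and in 0 of 433 and 0 of 54 pericyte-like cells, one of the 4 classes at 0 UMIs, which allows shares of up to 0.693% and 5.56%. Robo4 was seen in 11.2% (5.93 to 18.8%) and 15.7% (9.89 to 23.3%) of endothelial-like cells and in 0 of 1487 and 0 of 616 oligodendrocyte precursor-like cells, which allows up to 0.202% and 0.487%. The comparison classes here and below were picked for their low CPM, so the gap between the shares is a description.

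Plxnb3 was seen in 12.4% (9.46 to 15.9%) and 22.0% (10.6 to 37.6%) of differentiating oligodendrocyte-like cells and in 0 of 433 and 0 of 54 pericyte-like cells. Unc5b was seen in 11.3% (8.49 to 14.7%) and 14.8% (6.62 to 27.1%) of pericyte-like cells and in 0 of 70 and 0 of 60 interneuron-like cells, which allows up to 4.29% and 5.0%. Robo2 was seen in 21.7% (20.4 to 23.1%) and 24.0% (22.5 to 25.5%) of neuroblast-like cells, against 0 of 107 and 0.787% of 127 endothelial-like cells. Without thinning the shares in the named classes were 33.2 and 46.6% for Unc5d, 40.5 and 48.0% for Robo4, 49.4 and 51.2% for Plxnb3, 31.6 and 41.1% for Unc5b, and 35.1 and 38.4% for Robo2. Median depth before thinning was 2658 and 2490 UMIs in excitatory neuron-like, 3758 and 3521 in pericyte-like, 5847 and 4476 in endothelial-like, 3776 and 3652 in oligodendrocyte precursor-like, 6852 and 6114 in differentiating oligodendrocyte-like, 1849 and 1869 in neuroblast-like and 2556 and 2827 in interneuron-like cells. Thinning left out 177 and 131 neuroblast-like cells and at most 13 cells of any other class shown here in a library.

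Other genes of guidance pathways were counted in 4 lists in the same fit. Where no share of all genes called stands beside a count, the share given above for the same class or pair applies. Of 14 tested genes of the repulsive guidance molecule, draxin and related system, 9 were called higher in neuroblast-like cells and 0 lower, where 9.83% of all genes were higher, with a median log2 difference of 1.77 against 0.10 for all genes. In intermediate progenitor-like cells 6 were higher and 0 lower (median 1.63 against 0.05), and in dividing neural progenitor-like cells also 6 and 0 (median 1.23 against 0.02). Celsr3, an atypical cadherin needed for axon tracts, stood at 46.2 and 49.5 CPM against 13.2 and 14.5 CPM (edgeR adjusted p = 4.1e-76), and Ntng1, a membrane-anchored netrin relative, at 17.4 and 13.03 CPM against 3.91 and 4.21 CPM (edgeR adjusted p = 7.2e-26). All 5 collapsin response mediators, which pass semaphorin signals to the cytoskeleton, were called higher in neuroblast-like and in interneuron-like cells (median log2 difference 2.71 and 3.06, against 0.10 and -0.16 for all genes), 4 of 5 in Cajal-Retzius cell-like cells (1.82 against -0.11) and 3 of 5 in excitatory neuron-like cells (2.24 against -0.06). All 5 were called lower in endothelial-like cells. Dpysl5 stood at 96.4 and 108 CPM in neuroblast-like cells against 31.5 and 29.3 CPM (edgeR adjusted p = 8.4e-112), and Crmp1 at 400 and 382 CPM against 115 and 123 CPM (edgeR adjusted p = 4.6e-151).

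Of the 8 axonal adhesion co-receptors, 5 were called higher in excitatory neuron-like, 5 in interneuron-like, 5 in differentiating oligodendrocyte-like and 6 in Cajal-Retzius cell-like cells, with 0 called lower in each. Their median log2 differences there were 2.66, 3.01, 2.68 and 3.43, against -0.06, -0.16, -0.03 and -0.11 for all genes, of which 9.99, 9.34, 9.34 and 13.8% were called higher. Chl1, a relative of the adhesion molecule L1, stood at 202 and 276 CPM in excitatory neuron-like cells against 41.2 and 47.5 CPM (edgeR adjusted p = 2.6e-95). From dividing neural progenitor-like to neuroblast-like cells 5 of the 8 were higher, among them L1cam, at 21.8 and 21.9 CPM against 2.47 and 4.46 CPM (edgeR adjusted p = 8.3e-18). Of 35 tested cytoskeletal effectors 16 were called higher and 6 lower in pericyte-like cells, with a median log2 difference of 0.96 against 0.02 for all genes. Ablim1, an actin-binding protein, stood at 96.6 and 102 CPM there against 45.1 and 42.5 CPM (edgeR adjusted p = 2.1e-63), and the kinase gene Pak1 had 0 UMIs against 35.7 and 33.7 CPM (edgeR adjusted p = 2.6e-10). The counts were 6 higher and 3 lower in excitatory neuron-like, 8 higher and 10 lower in microglia-like, 4 higher and 13 lower in border macrophage-like, and 4 higher and 0 lower in oligodendrocyte precursor-like cells. Some of these counts of higher genes lie near the shares of all genes called higher in the same classes, and they are given as description.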

How the data were processed

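RNA was measured in single cells of 2 libraries, and cell classes were compared within 1 fit. The deposited matrices hold raw UMI counts, which the authors made with Cell Ranger 6.1.2 on mm10, per the file headers and the submitters' processing notes. No source used here names an annotation release or a strand setting. The kit reads the 3' end of transcripts, per the labels.

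Barcodes were kept from 500 detected genes upward and up to 10% mitochondrial UMIs (12618 and 14965). Scrublet scores in scanpy 1.11.5 removed 626 doublets in library 1 by the automatic threshold. In library 2 that threshold marked 0 cells, so the highest scores up to an expected 6% (898 cells) were removed. Leiden clustering (resolution 1) gave 28 clusters, 40 after splitting those with 2 marker lists, and 33 were named from 22 marker lists by limits set after seeing the data. Differences between classes may come from these rebuilt names.

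UMIs were summed per library and class. edgeR 4.0.16 (R 4.3.3; glmQLFit, glmQLFTest, TMM, filterByExpr, with a block for library, since 1 suspension gave all classes of a library) tested 11371 genes on 13 residual degrees of freedom, with Benjamini-Hochberg adjustment over all of them. Genes used for clustering and markers were not tested. The fit was also run on simulated data in which the classes shared the same mean levels, apart from genes changed in a single class. Genes confined to a few classes were not simulated, so the limit from classes without UMIs was not tested there. Shares of cells have exact binomial intervals that cover counting error only.

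Named members were, for each class, up to 4 called higher with the largest log2 difference and up to 2 called lower with the smallest adjusted p, and for each pair up to 4 in each direction by size, with at least 20 UMIs in the higher class. Up to 2 genes were allowed for each related list. Members named beyond this (Slit1 and Unc5c between neurons, Epha4 and Ephb2 in intermediate progenitor-like cells, Sema5a and Sema3d between oligodendrocyte classes, Unc5b between vessel classes, Robo2 in Cajal-Retzius cell-like cells, and the untested Sema3e and Efna4) were chosen after their values were seen. The members and lists were chosen with earlier results of these data known. Exons of 3 members (Nrp1, Plxnc1, Sema4a) overlap a gene on the same strand and those of 14 a gene on the other strand, so their counts are less certain. Alternatives were DESeq2 1.42.0, RLE scaling, no filter, no replicate block, Leiden resolution 2, doublets kept, stricter limits on cells (1000 genes, 5% mitochondrial UMIs), each library left out and, added after seeing the data, leaving out barcodes found in both libraries.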

Additional observations from a re-analysis of the deposited data

How the results depend on the processing

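Of 936 recomputed values of the 120 named results, 913 kept their call, 23 lost it and 0 reversed; of 372 recomputed counts, 340 stayed within 1.5 times. The library block is the pairing here, since the classes of a library come from 1 suspension; without the replicate block every count stayed within 1.5 times, with 32 members higher in excitatory neuron-like cells and 13 against interneuron-like cells. No filter on low counts and leaving out shared barcodes also moved no count that far.

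DESeq2 gave counts of lower members of 5 in astrocyte-like, 5 in Cajal-Retzius cell-like, 12 in differentiating oligodendrocyte-like, 14 in dividing neural progenitor-like, 2 in excitatory neuron-like, 36 in microglia-like, 12 in neuroblast-like, 12 in oligodendrocyte precursor-like and 20 in pericyte-like cells; the cause was not tested. RLE scaling gave 2 lower members in ependymal-like cells and shifted the median of all genes by up to 0.21 log2 there (0.28 against 0.07). Leiden resolution 2 gave 13 members higher from progenitor-like to neuroblast-like cells. With doublets kept, 1 member was lower in astrocyte-like and 1 in intermediate progenitor-like cells. Stricter limits on cells gave 1 lower in astrocyte-like, 3 lower in ependymal-like, 21 higher and 1 lower in intermediate progenitor-like, 1 lower in interneuron-like cells and 13 higher from progenitor-like to neuroblast-like cells; they left no differentiating oligodendrocyte-like or excitatory neuron-like class, so no value for these. The causes were not tested. The shares of all genes called under the alternatives are not given beside these counts. From the counts as given, a change in the members cannot be told apart from a change in all genes.

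In a single library, called higher members at least 2-fold apart numbered 7 to 11 in astrocyte-like, 4 to 5 in border macrophage-like, 2 in dividing neural progenitor-like, 3 to 4 in ependymal-like, 4 to 5 in intermediate progenitor-like, 9 to 11 in neuroblast-like and 6 in oligodendrocyte precursor-like cells, and lower members from progenitor-like to neuroblast-like cells 2 to 4, with no test. These single-library counts were taken after adding 1 CPM to both levels. Thinned to 2000 UMIs, the mean shares were 33.0% for Unc5d, 20.5% for Robo4, 19.9% for Unc5b and 27.8% for Robo2. Classes with 37 to 50 cells in a library limit what single UMIs can show.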

Other observations

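A cluster of 963 and 647 cells was left unnamed, since its leading genes (Neurod1, Tac2, Calb2, Prox1) held more markers of another list than of its own. It held much of several guidance genes. Sema3c stood at 393 and 450 CPM, near the 421 and 490 CPM of excitatory neuron-like cells. Epha4 stood at 283 and 280 CPM, Sema5a at 210 and 233 CPM, Plxna2 at 184 and 171 CPM, Neo1 at 167 and 169 CPM and Dcc at 127 and 118 CPM. Both libraries gave close levels for each of these 6 genes.

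Some classes had too few cells for the tests, and their levels are given as values only. Fibroblast-like cells (43 and 8) held Efnb1 at 62.3 and 158 CPM, from 19 and 9 UMIs, and Epha7 at 65.6 and 70.3 CPM, from 20 and 4 UMIs.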
